A study of Bos taurus with 10 samples.

Results

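The genes described here serve the endoplasmic reticulum (ER), the compartment in which secreted and membrane proteins are made. They cover the transport of new proteins into the ER, their folding, their export towards the Golgi apparatus and the signalling that answers an excess of unfolded protein. The list comprised every gene whose only symbol in the platform annotation starts with SEC and a digit, together with 27 further symbols for ER chaperones, stress sensors and related genes. It held 42 of the 9155 genes with a single symbol on the array: 21 by the SEC letters and 21 of the 27 listed symbols. PDIA6, XBP1, ATF6, ERN1, EDEM1 and ASNS were not matched by symbol and were not analysed here. The 42 genes were read by 68 of the 24016 probe sets tested. Where a gene had several probe sets, its probe set was chosen by the highest mean log2 value over the 10 arrays of both groups, a choice that does not use the difference between groups. SEC14L1 and SEC14L2, which encode lipid-binding proteins, entered through the letters of their symbols and have no ER role named in the list.

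The liver is a secretory organ: hepatocytes make most plasma proteins, and nearly all of these pass through the SEC61 channel into the ER. There, the chaperone HSPA5 (BiP) and its partners fold them, and vesicles coated with the COPII proteins carry them out. When unfolded protein accumulates, the sensors ERN1, EIF2AK3 and ATF6 start the unfolded protein response, which raises the transcription of chaperones, of degradation factors and, through ATF4, of DDIT3 and TRIB3.

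Liver biopsies came from Holstein dairy cows in week 5 of lactation. Both groups were fed a fat shielded from breakdown in the rumen: a control fat in 20 cows, and in 20 others a fat holding conjugated linoleic acid (CLA), a group of linoleic acid isomers. The fat was 27.3% of a supplemental concentrate given at 630 g of dry matter per day, starting in week 3 before calving and ending in week 14 of lactation. Each array read the pooled RNA of 4 cows, with 5 control pools and 5 CLA pools, so errors measure the spread between pools and not between cows. The comparison addresses how the liver's transcripts differ between the 2 feeds.

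The array values were log2 expression values. The array medians lay between 5.79 and 5.82 in the CLA pools and between 5.83 and 5.85 in the control pools, so they did not overlap, and the median difference over all probe sets was -0.018. Of 12 hepatocyte markers, 8 were higher and 4 lower in the CLA pools, and their mean level ran from 12.99 to 13.12 in the control pools and from 13.03 to 13.17 in the CLA pools. Of 11 markers of T and NK cells, 10 were lower, and their mean level ran from 6.46 to 6.87 in the control pools and from 6.33 to 6.58 in the CLA pools. Of 6 markers of plasma and B cells, which can be rich in ER, 2 were higher and 4 lower, with mean levels of 5.83 to 6.13 in the control pools and 5.71 to 6.15 in the CLA pools. The remaining lists had 1 of 8 higher and 6 lower for Kupffer cells and macrophages, 3 of 8 higher for endothelial cells, 6 of 8 for stellate cells and fibroblasts, 2 of 4 for cholangiocytes, 0 of 5 for erythroid cells and 1 of 6 for skeletal muscle. The part of these cells in the values below was not tested, and in whole biopsies a change in the number of cells of a type and a change in RNA per cell cannot be told apart.

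Among the 42 genes, 4 had an unadjusted p under 0.05, and each was higher in the CLA pools. CCDC47, SEC62 and SEC63, which act where proteins enter the ER, were higher by 0.38, 0.15 and 0.22 on the log2 scale, and SEC23A of the COPII coat by 0.33. No test compared the role groups with each other. The chaperones and folding enzymes lay close to 0, with a median of -0.034 over 13 genes, 4 higher and 9 lower (-0.003 with array medians subtracted and -0.071 after cyclic loess normalization). Of the stress factors and their targets, ATF4 differed by -0.11, DDIT3 by -0.14 and TRIB3 by 0.07 (limma, Benjamini-Hochberg adjusted p = 0.649, 0.644 and 0.904). After adjustment over the whole array (limma, Benjamini-Hochberg) 0 of 24016 probe sets (0%) were called, and 2135 had an unadjusted p under 0.05; the lowest adjusted p of the 42 genes was 0.272, that of CCDC47. At an unadjusted p under 0.05, 4 of the 42 genes (9.52%) were higher and 0 lower, where 4.35% of all 9155 genes were higher and 4.15% lower. Over all 42 genes, 23 were higher (54.8%, against 46% of all genes) and 19 lower. The median difference was 0.023 (-0.0026 after quantile normalization), against a median of -0.01 over all genes. The median level of the 42 genes was 9.43, against 7.23 over all genes. The genes were listed with earlier results of these data known, so these counts describe the list and are no independent evidence about it.

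**Figure D1:**
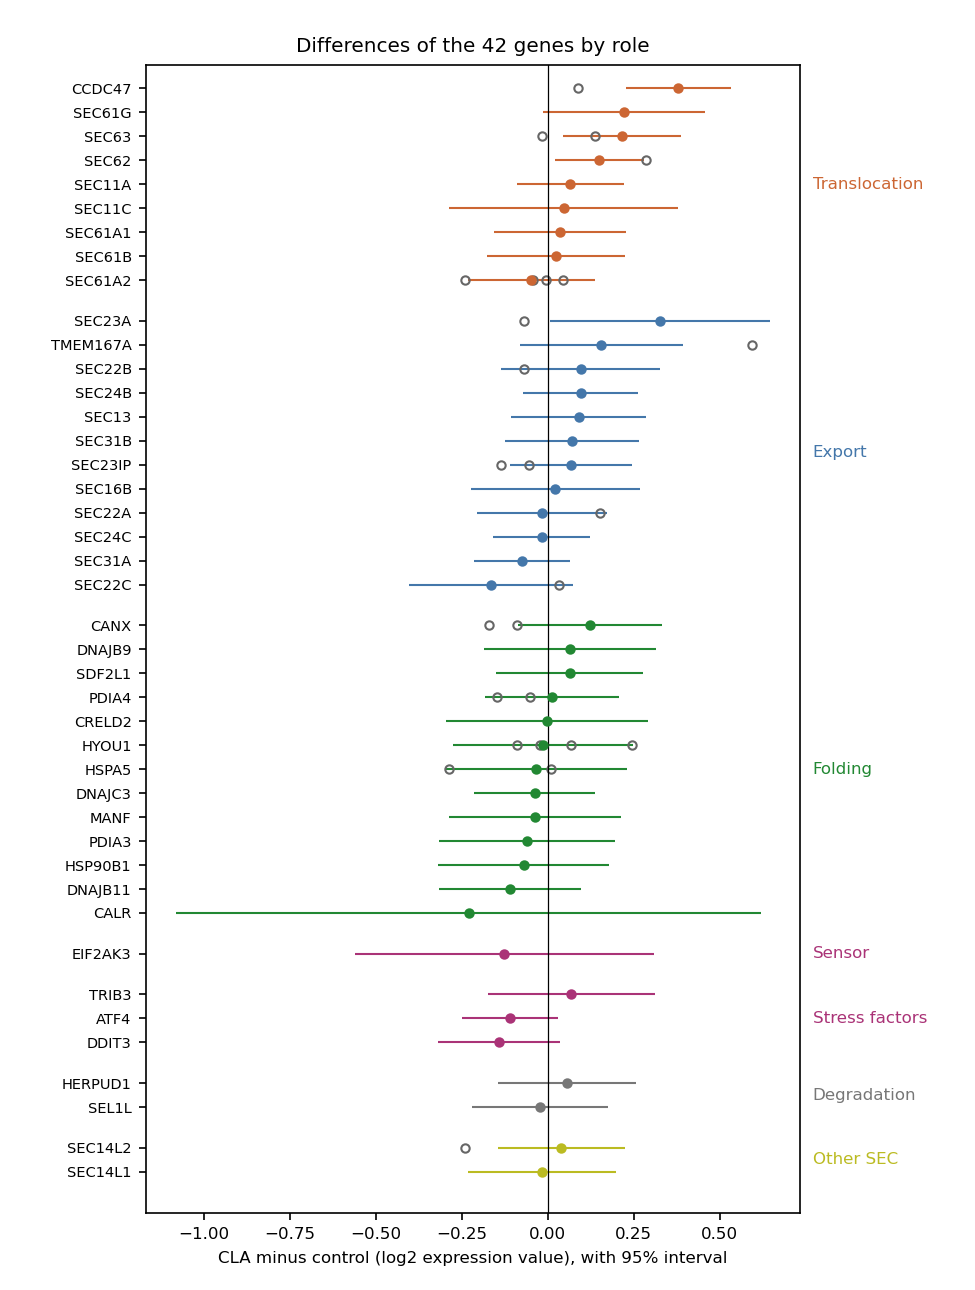
The difference CLA minus control in log2 expression value (x axis) of each of the 42 genes (y axis), grouped by role. Filled points are the brightest probe set with its 95% confidence interval from limma, and open circles are the other probe sets of the same gene. The intervals of CCDC47, SEC63, SEC62 and SEC23A lie above 0, and that of CALR is the widest, from -1.08 to 0.62.

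Of the 9 translocation genes, 8 were higher (88.9%, against 46% of all genes) and 1 lower. Their median difference was 0.066 (0.026 with 6 higher after quantile and 0.030 with 7 higher after cyclic loess normalization). Their median level was 10.46, against 7.23 over all genes. CCDC47 is an ER membrane protein that works beside the SEC61 channel in the insertion of proteins that span the membrane several times. Its log2 value was 9.20, 9.09, 9.37, 9.25 and 9.31 in control pools 1 to 5 and 9.62, 9.64, 9.59, 9.56 and 9.71 in CLA pools 1 to 5. The lowest CLA pool lay 0.19 above the highest control pool. The difference was 0.38 ± 0.070 SE, a 1.3-fold higher level, with a 95% interval from 0.23 to 0.53 (limma, Benjamini-Hochberg adjusted p = 0.272). Groups without overlap were found for 2 of the 42 genes, CCDC47 and SEC62, both with the CLA pools higher, and for 0 with the CLA pools lower, against 1.47% and 0.699% of all genes.

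The second CCDC47 probe set did not show this difference. Both sets were nearly equal on the value that chose between them, a mean over the 10 arrays of 9.43 and 9.36. On the second set the control pools read 9.24, 9.62, 9.26, 9.07 and 9.41 and the CLA pools 9.70, 9.39, 9.49, 9.36 and 9.10. The groups overlapped, with CLA pool 1 above and control pool 4 below all others, and the difference was 0.09 ± 0.12 SE, with an interval from -0.18 to 0.35.

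SEC62 and SEC63 are membrane partners of the SEC61 channel that help certain precursors, among them small ones, to enter it. SEC62 read 10.87, 10.83, 10.81, 10.81 and 10.77 in the control pools and 11.02, 10.97, 11.03, 10.90 and 10.92 in the CLA pools. All CLA pools lay above all control pools, by a gap of 0.03. The difference was 0.15 ± 0.060 SE (limma, Benjamini-Hochberg adjusted p = 0.507). The second SEC62 probe set agreed in direction: its control pools ran from 9.29 to 9.76 and its CLA pools from 9.79 to 9.96, a difference of 0.29 ± 0.089 SE (limma, adjusted p = 0.413). SEC62 is the only one of the 15 genes with several probe sets for which each set separated the groups. SEC62 on its brightest set no longer had an unadjusted p under 0.05 without control pool 5 (difference 0.14), CLA pool 1 (0.14) or CLA pool 3 (0.13), nor after quantile (0.094) or cyclic loess (0.11) normalization. The same held without CLA pool 2 and control pool 4 together, and without CLA pool 2 and control pool 5 together (0.14).

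SEC63 read 8.53, 8.64, 8.68, 8.35 and 8.46 in the control pools and 8.75, 8.69, 8.83, 8.82 and 8.65 in the CLA pools. Of the CLA pools, 4 lay above the highest control pool, and CLA pool 5 lay 0.03 below it. The difference was 0.22 ± 0.078 SE (limma, Benjamini-Hochberg adjusted p = 0.464). Its other probe sets differed by 0.14 ± 0.35 SE and -0.02 ± 0.063 SE. The first of these held a very low control pool 4 (6.81, against 8.22 to 8.59 in the other control pools), and without that pool its difference was -0.19. With the mean of the 3 sets the difference of SEC63 was 0.11, and its unadjusted p was no longer under 0.05.

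SEC61G, the small gamma subunit of the channel, had no second probe set. It read 10.84, 10.91, 10.95, 10.43 and 10.79 in the control pools and 11.07, 11.17, 11.02, 11.02 and 10.75 in the CLA pools, so 4 CLA pools lay above every control pool and CLA pool 5 lay among the controls. The difference was 0.22 ± 0.11 SE (limma, Benjamini-Hochberg adjusted p = 0.577). SEC61A1, the pore-forming alpha subunit, differed by 0.04 ± 0.088 SE (95% interval -0.16 to 0.23) and SEC61B by 0.02 ± 0.092 SE (-0.18 to 0.22), and their difference from SEC61G was not tested. SEC61A2, a second alpha subunit, differed by -0.05 ± 0.085 SE. Of its other probe sets, a dim one differed by -0.24 ± 0.20 SE, and by -0.295 (limma, Benjamini-Hochberg adjusted p = 0.516) without CLA pool 2 and control pool 5, its lowest pools. SEC11A and SEC11C, catalytic subunits of the signal peptidase that trims the signal sequence, differed by 0.07 ± 0.071 SE and 0.05 ± 0.15 SE.

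**Figure D2:**
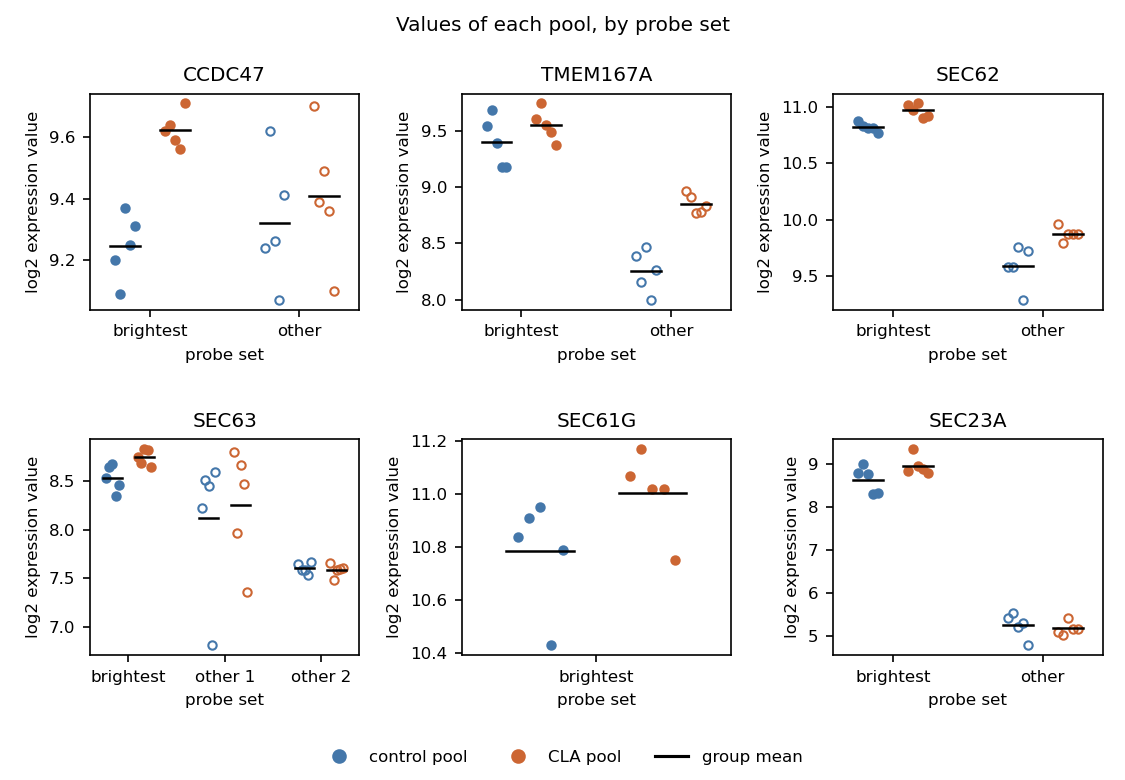
Log2 expression values (y axis) of the 5 control and 5 CLA pools for 6 genes, with the probe sets of each gene side by side (x axis, brightest first, filled; others open). Black bars are group means. The groups do not overlap in CCDC47 on the brightest probe set alone, in TMEM167A on the other probe set alone, and in SEC62 on both.

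Of the 12 export genes, 8 were higher (66.7%, against 46% of all genes) and 4 lower. Their median level was 7.89, against 7.23 over all genes. The median difference was 0.07, and 1 gene (8.33%, against 8.5% of all genes) had an unadjusted p under 0.05. That gene was SEC23A, which encodes an inner coat protein of COPII vesicles. It read 8.80, 9.0, 8.77, 8.32 and 8.34 in the control pools and 8.85, 9.36, 8.96, 8.90 and 8.79 in the CLA pools. CLA pool 2 was the only CLA pool above the highest control pool, and control pools 4 and 5 were the low ones. The difference was 0.33 ± 0.15 SE (limma, Benjamini-Hochberg adjusted p = 0.558), and the second probe set differed by -0.07 ± 0.13 SE. The unadjusted call ended without control pool 4 (difference 0.24) or 5 (0.25) or CLA pool 2 (0.23), 3 (0.33) or 4 (0.34). It also ended without CLA pool 2 and control pool 4 together (0.15) and without CLA pool 2 and control pool 5 together (0.15), and after quantile and cyclic loess normalization, with array weights (0.23), without the dimmest probe sets and with the mean of its probe sets (0.13).

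TMEM167A, a small membrane protein of the early secretory pathway, was split between its probe sets. On the brightest set the control pools read 9.54, 9.68, 9.39, 9.18 and 9.18 and the CLA pools 9.60, 9.74, 9.55, 9.49 and 9.37. The groups overlapped, and the difference was 0.16 ± 0.11 SE (limma, Benjamini-Hochberg adjusted p = 0.716). On the other set the control pools read 8.39, 8.16, 8.47, 8.0 and 8.26 and the CLA pools 8.96, 8.91, 8.77, 8.78 and 8.83. Here every CLA pool lay at least 0.30 above every control pool, and the difference was 0.59 ± 0.092 SE, or 1.51-fold (limma, adjusted p = 0.252). Among all 24016 probe sets that set ranked 2 by p. The mean of both sets gave 0.375. Over quantile normalization, subtraction of array medians, cyclic loess and each pool left out, the second set differed by 0.53 to 0.65.

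On their brightest probe sets, the rest of the export group differed by -0.16 to 0.10. SEC13 and SEC31A, which form the outer COPII cage, differed by 0.09 ± 0.090 SE and -0.07 ± 0.064 SE, and SEC31B by 0.07 ± 0.090 SE. The cargo-binding coat proteins SEC24B and SEC24C differed by 0.10 ± 0.077 SE and -0.02 ± 0.064 SE. SEC23IP, which binds the SEC23 coat proteins, and SEC16B, which marks ER exit sites, differed by 0.07 ± 0.081 SE and 0.02 ± 0.11 SE. Of the SEC22 family, SEC22B, a fusion protein of vesicles between ER and Golgi, differed by 0.10 ± 0.11 SE, SEC22A by -0.02 ± 0.087 SE and SEC22C by -0.16 ± 0.11 SE. Their second sets differed the other way, by -0.07 ± 0.13 SE, 0.15 ± 0.094 SE and 0.03 ± 0.13 SE.

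The chaperones showed no difference larger than the spread between pools. HSPA5, the master chaperone of the ER and the classical reporter of the unfolded protein response, read 11.84, 12.21, 12.23, 11.76 and 11.97 in the control pools and 12.01, 11.74, 12.18, 12.16 and 11.75 in the CLA pools. The groups covered nearly the same range. The difference was -0.03 ± 0.12 SE, with a 95% interval from -0.30 to 0.23 (limma, Benjamini-Hochberg adjusted p = 0.963). HSP90B1 (GRP94), a chaperone of the HSP90 family, read 11.63, 11.86, 11.83, 11.83 and 11.75 in the control pools and 11.96, 11.35, 11.75, 11.94 and 11.55 in the CLA pools. Both its highest and its lowest pools were CLA pools, and the difference was -0.07 ± 0.11 SE.

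PDIA4, a protein disulfide isomerase, read 10.65, 10.52, 10.74, 10.91 and 10.74 in the control pools and 10.85, 10.51, 10.74, 10.83 and 10.69 in the CLA pools, a difference of 0.01 ± 0.090 SE. Its other probe sets differed by -0.15 ± 0.28 SE and -0.05 ± 0.14 SE. DNAJB9 (ERdj4), a co-chaperone induced through XBP1, read 9.82, 9.99, 9.97, 9.60 and 9.72 in the control pools and 9.83, 9.85, 10.20, 9.96 and 9.58 in the CLA pools. CLA pool 3 was the highest of all 10 and CLA pool 5 the lowest, and the difference was 0.06 ± 0.11 SE. Without CALR, the 95% intervals of the other 12 folding genes on their brightest probe sets reached down to -0.32 and up to 0.33. Differences beyond these bounds lay outside the interval of each brightest set. Some other sets of these genes had wider intervals, from -1.17 to 0.59 for the second HSPA5 set and from -0.74 to 0.45 for the second PDIA4 set.

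Among the remaining folding genes, CANX, the membrane-bound lectin chaperone calnexin, differed by 0.12 ± 0.096 SE and SDF2L1 by 0.06 ± 0.098 SE. CRELD2 and MANF, which are induced by ER stress, differed by -0.002 ± 0.13 SE and -0.04 ± 0.12 SE. HYOU1, which assists HSPA5 in exchanging its nucleotide, differed by -0.01 ± 0.12 SE, and the co-chaperones DNAJC3 and DNAJB11 by -0.04 ± 0.081 SE and -0.11 ± 0.095 SE. PDIA3, the disulfide isomerase that works with CANX and CALR, differed by -0.06 ± 0.12 SE. The degradation genes HERPUD1 and SEL1L, both part of the route by which misfolded protein leaves the ER for breakdown, differed by 0.06 ± 0.092 SE and -0.02 ± 0.091 SE.

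CALR, the soluble lectin chaperone calreticulin, varied more between pools than any other of the 42 genes, with a pooled SD of 0.76 against a median of 0.15 over the list. It read 8.79, 9.52, 9.13, 9.47 and 7.88 in the control pools and 9.39, 7.31, 9.14, 9.11 and 8.69 in the CLA pools. CLA pool 2 and control pool 5 were far below the rest, and the difference was -0.23 ± 0.39 SE (limma, Benjamini-Hochberg adjusted p = 0.908). It was 0.12 without CLA pool 2 and -0.50 without control pool 5, so 1 pool set its sign.

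The same 2 pools had the lowest signal of the manufacturer's control probe set for the 5′ end of EF1A, 8.94 in CLA pool 2 and 10.13 in control pool 5, against 11.20 to 12.35 in the other 8 pools. The 3′ end of EF1A read 12.08 to 12.41 in all 10 pools. Of the 68 probe sets of the list, 8 (11.8%) had these 2 pools as their lowest, against 3.71% of all probe sets. With 1 probe set per gene, it was 2 of the 42 genes (4.76%), CALR and EIF2AK3, against 2.28% of all genes. The mean of the 2 pools minus that of the other 8 was -1.56 for CALR, -1.47 for the second HSPA5 probe set, -0.96 for the second SEC14L2 set, -0.89 for the second PDIA4 set and -0.79 for EIF2AK3. The control set for the 5′ end of GAPDH did not single out CLA pool 2 (11.53, with 10.85 in control pool 5 and 11.08 to 11.75 in the others). The actin controls singled out neither pool. Their 5′ minus 3′ value was -1.42 in CLA pool 2 and -2.03 in control pool 5, and -2.77 to -1.26 in the others. The part of RNA integrity in these values was not tested. Without both pools the difference of CALR was -0.15 ± 0.18 SE and that of the second HSPA5 set -0.11 ± 0.24 SE, in place of -0.29 ± 0.40 SE.

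**Figure D3:**
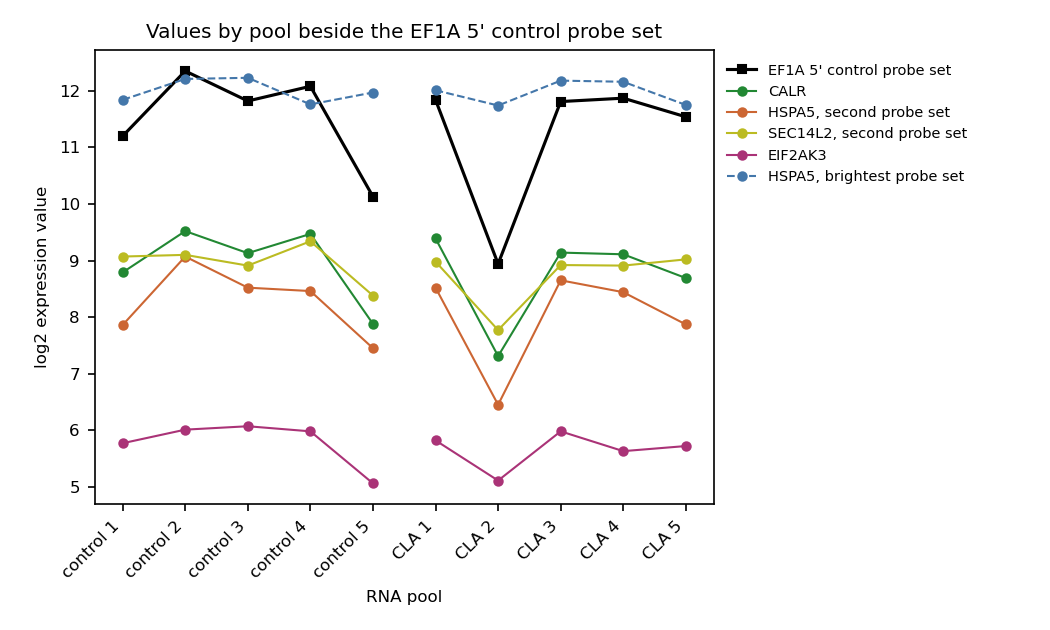
Log2 expression values (y axis) in each RNA pool (x axis) of the 5′ control probe set of EF1A, of CALR, EIF2AK3 and the second probe sets of HSPA5 and SEC14L2, and of the brightest HSPA5 probe set (dashed). All but the dashed line are lowest in control pool 5 and CLA pool 2 within their groups. The brightest HSPA5 set was also lowest in CLA pool 2 among the CLA pools (11.74), but not in control pool 5 (11.97, against 11.76 in control pool 4).

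The stress branch held few measured genes. EIF2AK3 (PERK), the sensor that slows translation, differed by -0.13 ± 0.20 SE, and by -0.17 ± 0.098 SE without CLA pool 2 and control pool 5. ATF4, the transcription factor made when that sensor is active, read 10.93, 10.99, 10.96, 11.03 and 10.80 in the control pools and 10.81, 10.82, 10.81, 10.83 and 10.89 in the CLA pools. Control pool 5 was the only control pool below a CLA pool. The difference was -0.11 ± 0.064 SE (limma, Benjamini-Hochberg adjusted p = 0.649). ATF4 had an unadjusted p under 0.05 after quantile (-0.16) and cyclic loess (-0.15) normalization and without control pool 5 (-0.15), and the adjusted p was 0.552 or more under every alternative tried.

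DDIT3 (CHOP), a target of ATF4 that favours cell death under lasting stress, read 7.87, 7.60, 7.89, 7.81 and 7.74 in the control pools and 7.53, 7.77, 7.61, 7.53 and 7.76 in the CLA pools. The groups overlapped, and the difference was -0.14 ± 0.081 SE (limma, Benjamini-Hochberg adjusted p = 0.644). It had an unadjusted p under 0.05 without control pool 2 (-0.19) and with array weights (-0.20). TRIB3, a pseudokinase induced by ATF4 and DDIT3, differed the other way, by 0.07 ± 0.11 SE. ATF4 is largely controlled at translation, which these arrays do not read.

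Outside these roles, SEC14L1 and SEC14L2 differed by -0.02 ± 0.099 SE and 0.04 ± 0.085 SE. The second SEC14L2 set differed the other way, by -0.24 ± 0.24 SE.

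With the group means removed, 3 of the 41 other genes followed HSPA5 from pool to pool at an adjusted p under 0.05: the folding genes MANF and CANX, and SEC63. Genes outside the list were not correlated with HSPA5. The share of all genes that would follow it as closely is therefore not known, and the count describes the list alone. HSPA5 was high in control pools 2 and 3 and in CLA pools 3 and 4, and low in control pool 4 and in CLA pools 2 and 5. The level of MANF had the highest correlation with that of HSPA5 over the 10 pools, with Pearson's r = 0.936 (permutation p = 0.00107 within groups, 0.0221 after Benjamini-Hochberg over the 41 relations) and a rank correlation, Spearman's rho, of 0.839 (permutation p = 0.00601, adjusted 0.0616). SEC63 was next, with r = 0.899 (permutation p = 0.00189, adjusted 0.0258) and rho = 0.927 (permutation p = 0.00106, adjusted 0.0435), and then CANX, with r = 0.870 (permutation p = 0.00108, adjusted 0.0221) and rho = 0.867 (permutation p = 0.00443, adjusted 0.0616). Without control pool 4 and CLA pool 2, the pools in which HSPA5 lay farthest from its median, these r values were 0.952, 0.889 and 0.902.

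DNAJB11 (r = 0.851) and SEC22B (r = 0.832) followed, with adjusted permutation p of 0.0888 and 0.0535. Of the 41 relations 29 were positive, a count that also has no share over all genes beside it. The other folding genes did not pass the adjusted test, and their r values covered a wide range. DNAJB9 (r = 0.829, adjusted permutation p = 0.0535), CRELD2 (r = 0.696), HSP90B1 (r = 0.662) and PDIA3 (r = 0.587) had the higher values. Lower ones were those of DNAJC3 (r = 0.543), CALR (r = 0.476), HYOU1 (r = 0.471), SDF2L1 (r = 0.114) and PDIA4 (r = 0.054). At the other end, SEC14L2 ran against HSPA5 (r = -0.715, adjusted permutation p = 0.173, rho = -0.807), and the stress factor DDIT3 did not follow it (r = -0.600, adjusted permutation p = 0.253). CCDC47 did not either (r = -0.286, adjusted permutation p = 0.682). Values compared in this way come from the same arrays and share their normalization.

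**Figure D4:**
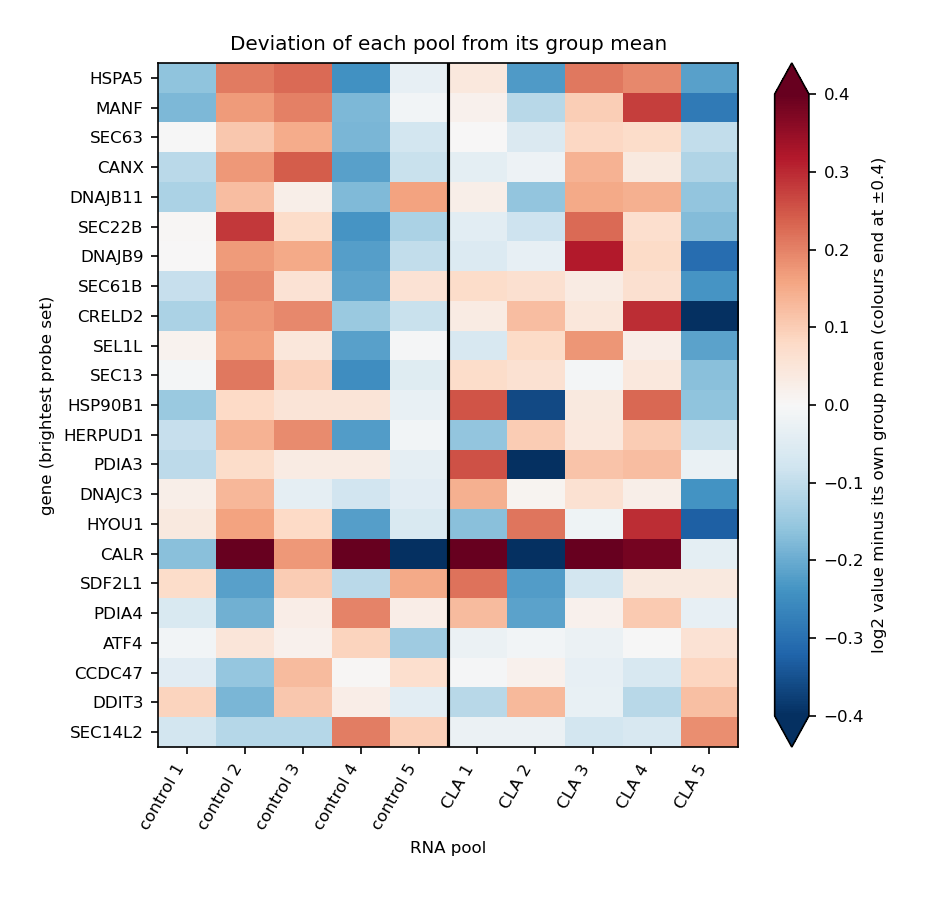
Deviation of the log2 value of each RNA pool (x axis) from the mean of its own group, for HSPA5, the genes most and least like it and other folding genes (y axis), with red above and blue below the mean and colours ending at ±0.4. The upper rows, from HSPA5 to CRELD2, are mostly red in control pools 2 and 3 and CLA pool 4 and blue in control pool 4 and CLA pool 5, and CALR shows the deep values of CLA pool 2 and control pool 5.

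Of 130 other genes of the secretory pathway, 107 were measured. At an unadjusted p under 0.05, 6 were higher and 2 lower, together 7.48%, against 8.5% of all genes, and 0 passed the adjusted test. In all, 69 were higher (64.5%, against 46% of all genes) and 38 lower, and their median difference was 0.032. Their median level was 9.03, against 7.23 over all genes. Their differences under other normalizations were not computed. The list of targeting and translocon genes had 17 higher and 10 lower of 27 (median 0.052), with both directions among those of small p.

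SRP9, a subunit of the signal recognition particle that brings ribosomes to the ER, read 8.23, 8.35, 8.28, 8.02 and 8.04 in the control pools and 8.49, 8.81, 8.55, 8.57 and 8.49 in the CLA pools. The groups did not overlap, and the difference was 0.40 ± 0.090 SE (limma, Benjamini-Hochberg adjusted p = 0.299). SPCS3, a subunit of the signal peptidase, was higher by 0.25 ± 0.075 SE without overlap, and 0.12 and -0.09 were the differences on its other sets. GET3, which delivers tail-anchored proteins to the ER membrane, was lower in the CLA pools, with a difference of -0.32 ± 0.11 SE, and so was SSR2, a subunit of the translocon-associated TRAP complex, with -0.15 ± 0.070 SE.

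In the other lists, TMEM167B, the paralogue of TMEM167A, was higher by 0.26 ± 0.088 SE without overlap, by a gap of 0.01, and its other sets differed by 0.11 and -0.11. MAGT1, an oxidoreductase subunit of the oligosaccharyltransferase, was higher by 0.25 ± 0.11 SE, and its other sets differed by 0.06 and 0.004. The thioredoxin-like proteins TMX4 and TXNDC12 were higher by 0.20 ± 0.076 SE and 0.16 ± 0.073 SE. Medians were 0.06 for N-glycosylation (9 of 12 higher), 0.024 for folding (12 of 22), 0.033 for export and retrieval (15 of 20), 0.016 for degradation (7 of 12) and 0.014 for stress signalling (9 of 14).

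**Figure D5:**
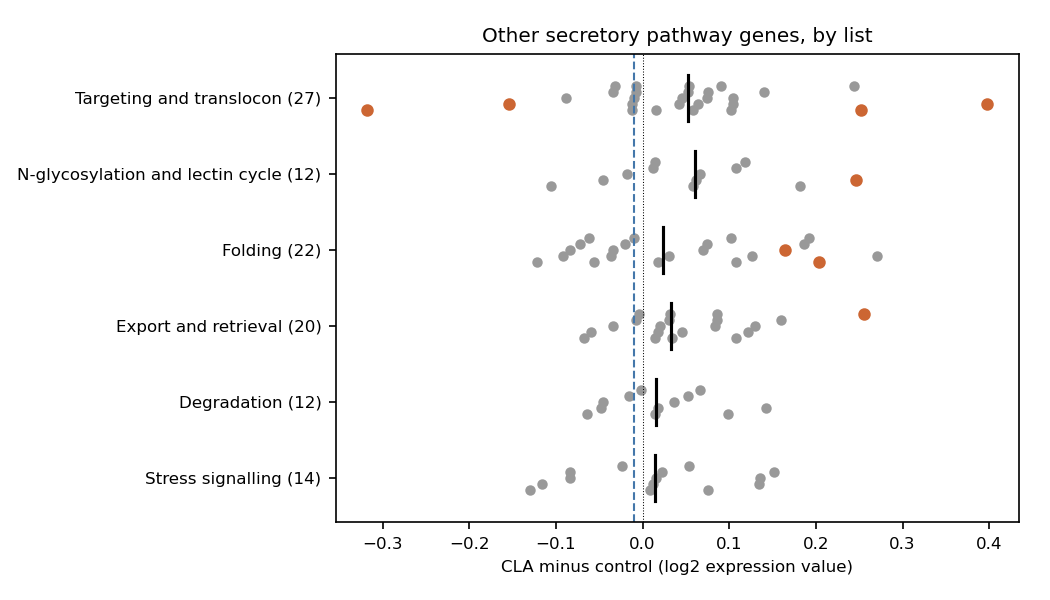
The difference CLA minus control in log2 expression value (x axis) of 107 other secretory pathway genes in 6 lists (y axis, number of genes in brackets). Each point is a gene, orange points have an unadjusted p under 0.05, black bars are list medians, and the dashed line is the median of all genes (-0.01). The farthest points are SRP9 at 0.40 and GET3 at -0.32, both in the targeting and translocon list.

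Over the probe sets, 7 of the 68 were higher and 0 lower at an unadjusted p under 0.05, against 4.01% higher and 4.88% lower of all 24016 probe sets. Of the 7, 4 were the brightest of their gene and 3 were others: the second sets of TMEM167A and SEC62 and a set of HYOU1 at the dim end of the array (mean 3.74, difference 0.24 ± 0.11 SE). Of the 26 other probe sets, 10 differed in the direction of the brightest set of their gene and 16 in the opposite direction.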

How the data were processed

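Affymetrix bovine expression arrays read pooled liver RNA, 1 array per pool. The authors deposited log2 expression values per probe set, made with Affymetrix Expression Console 1.1 and RMA per the submitters' processing notes; their order and settings are not given in the sources used here. This table was used as deposited: 24128 rows, less 112 control probe sets. Symbols came from the platform annotation (13292 probe sets with 1 symbol, 86 with several, 10638 with none); 13263 were also found by gene identifier in the RefSeq table of assembly ARS-UCD2.0.

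CLA minus control was fitted on all 24016 probe sets with limma 3.58.1 in R 4.3.3 (lmFit, eBayes, no covariates), with Benjamini-Hochberg adjustment. Unadjusted p under 0.05 was used for counting only. The test was checked before use on simulated data with independent normal noise. There, 14 of 50 probe sets changed 1.3-fold (28%) passed after adjustment, and 37 of 50 changed 1.5-fold (74%). Likeness to HSPA5 used 100000 two-sided permutations within groups. The labels name no batches. Precision is limited by there being 5 arrays in each group.

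The genes, role groups and lists were chosen with earlier results of these data known. Values by pool are given for 9 measured genes picked to represent the roles, also with earlier results known (HSPA5, HSP90B1, CALR, PDIA4, DNAJB9, ATF4, DDIT3, CCDC47, TMEM167A). They are also given for every one of the 42 genes with an unadjusted p under 0.05 or no overlap. SEC61G and SRP9 were added after their values were seen. Of the 107 other genes, those with an unadjusted p under 0.05 are named, at most 6 in each direction. Alternatives were 3 further normalizations, a filter on the dimmest 30%, eBayes options, array weights, averaging the probe sets of each gene, the pool number as a block, each pool left out, and CLA pool 2 left out with control pool 4 or, chosen after seeing the data, 5. No sequences were used.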

Additional observations from a re-analysis of the deposited data

Results flagged for a closer look

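Of 44 groups of 5 pools examined (the probe sets of the 12 genes given by pool under the rule for named genes), 3 held a pool far from the other 4, and chance gives about 1 in 20. ATF4 in CLA pool 5 read 10.89, against 10.81 to 10.83 in the other CLA pools. A dim PDIA4 probe set in CLA pool 2 read 4.72, against 5.25 to 5.42. The second SEC63 probe set in control pool 4 read 6.81, against 8.22 to 8.59.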

How the results depend on the processing

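The count of genes higher in the CLA pools at an unadjusted p under 0.05, 4 of 42, became 2 after quantile normalization, 2 after cyclic loess normalization, 2 without CLA pool 2 and control pool 4, and 2 without CLA pool 2 and control pool 5, and ran from 2 (without control pool 5 or CLA pool 3) to 5 with single pools left out. The count of genes lower, 0, became 1 after quantile normalization, 1 after cyclic loess normalization and 1 with array weights, and ran from 0 to 1 with single pools left out. The shares of all genes called under these settings were not computed, so these changes are not set against the whole array. The causes were not tested. The median difference of the list, 0.023, lay between -0.0026 (quantile normalization) and 0.054 (array medians subtracted), so its sign depended on the normalization. The mean over the 42 genes had a between-pool SD of 0.071, which describes single pools and is not the error of this median difference. Of 240 values of the 12 genes given by pool under 20 alternatives, 213 stayed within their replicate spread or on their side of the unadjusted threshold, 20 lost it, 6 gained it, and 1, TMEM167A as the mean of its probe sets (0.375), moved beyond its spread. For genes without an unadjusted p under 0.05, a change of sign within that spread counted as staying. CALR, for example, ran from -0.50 to 0.25 and HSPA5 from -0.10 to 0.023, so the 213 does not measure how stable the differences were. CCDC47 lay between 0.23 and 0.41 with an unadjusted p of 0.00587 or less in each, and the lowest adjusted p among all 240 was 0.157. With the pool number as a replicate block the counts were 4 and 0, and over all probe sets 2168 had an unadjusted p under 0.05 in place of 2135, with 0 passing after adjustment in either fit. Deviations of same-numbered pools correlated between -0.086 and 0.092, so the numbers were not taken as pairs. The median SE over the 42 genes was 0.093, and 1 array per pool gives no technical error.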

Other observations

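Of 14 measured stress signalling genes outside the list, 0 had an unadjusted p under 0.05 in limma, against 8.5% of all genes, and 0 passed after adjustment. With 14 genes a count of 0 is near that share. ATF3, a stress-induced transcription factor, differed by 0.02 ± 0.19 SE, PPP1R15A, which restores translation after stress, by 0.01 ± 0.10 SE, and CHAC1, a target of the ATF4 branch, by 0.15 ± 0.093 SE. CREB3L3, a liver transcription factor activated at the Golgi apparatus, differed by -0.08 ± 0.14 SE, and MBTPS1 and MBTPS2, the proteases that release such factors, by 0.05 ± 0.061 SE and -0.13 ± 0.11 SE. These genes were named after their values were seen.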
